A study of Sus scrofa with 6 samples.

Results

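The genes described here encode complement proteins and acute phase plasma proteins, measured in the renal medulla of pigs after cardiopulmonary bypass (CPB) or a Sham procedure. A list of 59 gene symbols was set, and every probe set that the array annotation names with 1 of these symbols alone was taken. This gave 74 probe sets for 47 of the 59 genes, out of 6765 genes with a named probe set on the array. The 12 genes with no such probe set, and so with no value, were C1QB, C6, MASP1, MASP2, MBL1, C1QBP, C3AR1, C5AR1, CR2, CFI, SAA3 and SERPINA3. The CPB group comprised 3 pigs kept on bypass for 2.5 hours under general anaesthesia, and the Sham group 3 pigs anaesthetised for 2.5 hours. All were labelled White-Landrace crossbred (Large White-Landrace in the study's methods, which describe adult females), and both groups had the same neck dissection and systemic heparin. Medulla was sampled 24 hours after the intervention, and 1 Affymetrix porcine array was run per animal. Values are RMA intensities (background-corrected, quantile-normalised and summarised over the probes of a probe set), and differences are CPB minus Sham on the log2 scale with the standard error (SE) of limma's moderated fit.

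Complement is a cascade of plasma proteins that tags particles and cells for clearance. It starts through C1q and the proteases C1r and C1s (classical pathway), through mannose-binding lectin and ficolins (lectin pathway) or through factors B and D and properdin (alternative pathway), and all routes meet at C3 and end in the pore built from C5 to C9. Host cells are shielded by inhibitors in plasma and on the membrane. The acute phase response is the change in plasma proteins after injury or infection, in which the liver, driven largely by interleukin-6, makes more of proteins such as C-reactive protein and serum amyloid A and less of albumin and transthyretin. The liver makes most of these proteins, but kidney tubules, resident macrophages and stromal cells transcribe some of them as well.

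None of the 74 member probe sets met the threshold that the study applied, an unadjusted p under 0.05 with at least a 1.6-fold difference, against 0.304% of all 23999 probe sets tested. The smallest adjusted p of any member was 0.995 in limma (Benjamini-Hochberg over all probe sets), and 0% of all probe sets passed an adjusted p of 0.05. No member reached an unadjusted p under 0.05 in limma, where 1.40% of all probe sets did, and none did with the methods' t-test on log2 or on linear values. For none of the 74 did the CPB and Sham values separate without overlap, against 5.27% of all probe sets. With 3 animals against 3, a two-sided exact permutation test cannot give a p below 0.1.

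On the brightest probe set of each gene, 8 of 47 genes (17.0%) differed by at least 1.6-fold between the group means, against 3.14% of all probe sets. Of these, 6 had the higher mean in CPB (APOC3, TTR, C5, C4A, RBP4 and ITIH1) and 2 had the lower (SERPINA1 and CFD). The CPB mean was the higher one for 28 of 47 genes (59.6%), against 55.9% of all probe sets, and the median of the log2 differences was 0.087, against 0.027 over all probe sets. In this and the next paragraph members are counted on the brightest probe set of each gene. The values over all probe sets include dimmer and unannotated ones, so members and background are not matched.

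Many members varied widely across the 6 animals of both groups. The highest intensity was 2.15 times the lowest across the 6 arrays for the median member, against 1.48 times for the median probe set. For 12 of the 47 members (25.5%) this range was above 4-fold, against 5.60% of all probe sets, and for 4 (APOC3, FGB, TTR and RBP4) it was above 10-fold. The 3 highest arrays were CPB 1, CPB 3 and Sham 2 for 20 of the 47 members (42.6%), against 21.4% of all probe sets. Of the 12 members that ranged over more than 4-fold, 10 had this order (APOC3, FGB, TTR, RBP4, C4A, LBP, C5, A2M, ITIH1 and C7), and the other 2, CFD and SERPINA1, had CPB 2, Sham 1 and Sham 3 as the 3 highest. Among the 1343 probe sets of the whole array that ranged over more than 4-fold, 37.0% had the first order and 39.6% the second. Where the 12 members had other probe sets, most of these ranged less. The range was 1.52- and 1.82-fold for A2M, 1.14-fold for LBP, 1.27-fold for ITIH1, 2.32-fold for RBP4 and 8.60-fold for C7. At the other end, 16 members stayed within 1.6-fold over all 6 arrays, among them C3, the central protein of the cascade, albumin (ALB), C-reactive protein (CRP) and apolipoprotein E (APOE). The lowest 25% of all probe sets by mean intensity held 10 members (CRP, C4BPB, PTX3, MBL2, VTN, ALB, CD55, APOH, FCN1 and C8A), and signal over background, which bears on how far such dim probe sets can vary, is not known.

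**Figure D1:**
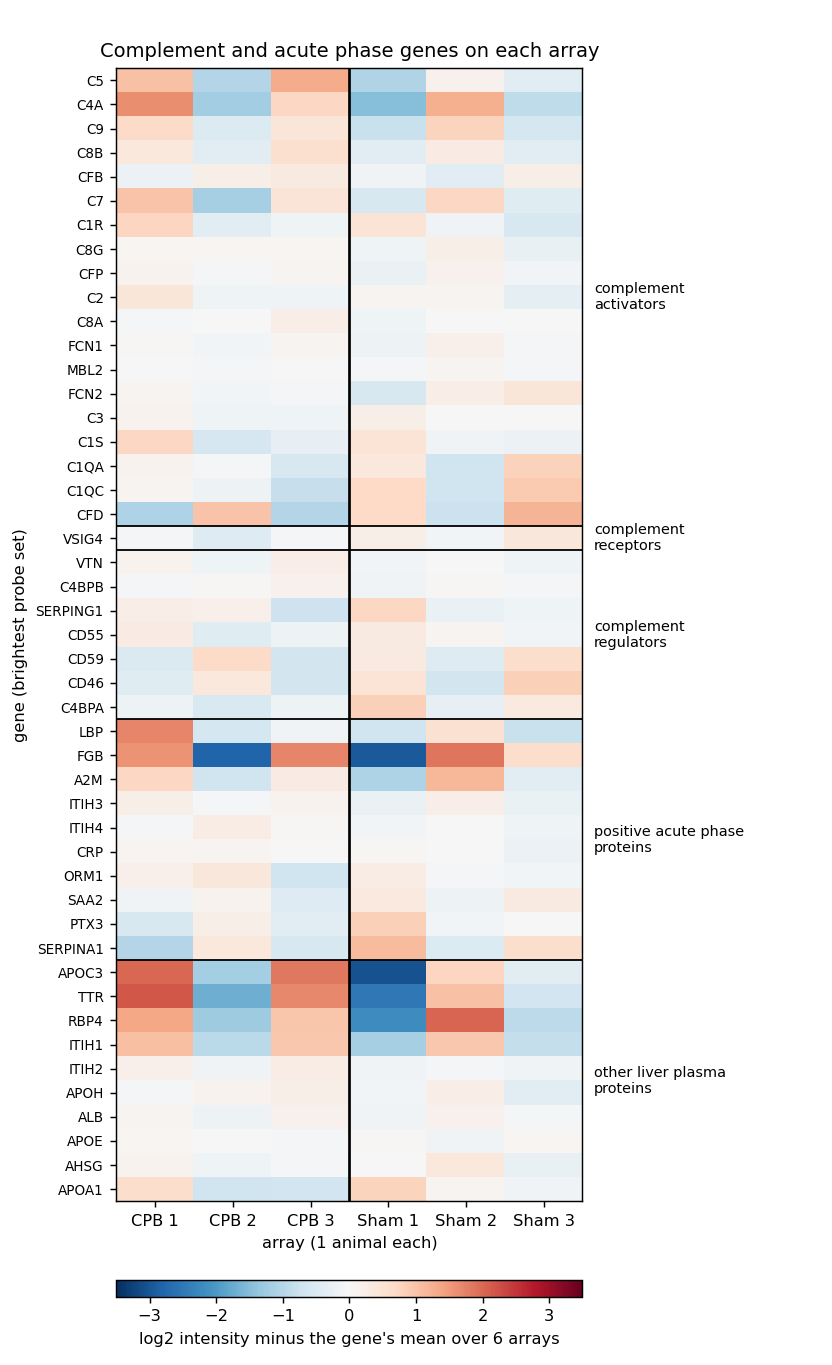
Log2 intensity of the 47 measured genes (rows, brightest probe set, by group and then by log2 difference) on each array (columns, 3 CPB left of 3 Sham), each gene shown relative to its average of all 6. APOC3, TTR, RBP4, FGB and C4A were high on CPB 1, CPB 3 and Sham 2, CFD was high on CPB 2, Sham 1 and Sham 3, and 16 genes varied by less than 1.6-fold.

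Markers of other cells moved with the same arrays. Of 18 measured proximal tubule markers, from a list of 28, 16 had CPB 1, CPB 3 and Sham 2 as the 3 highest arrays, and 16 ranged over more than 4-fold. Their summed intensity lay between 9125 and 48576 on the CPB arrays and between 8953 and 38874 on the Sham arrays (RMA gives no value of 0). Their centred mean was 1.19, -1.59 and 1.53 log2 units on CPB 1, 2 and 3, against -1.98, 1.10 and -0.25 on Sham 1, 2 and 3. The centred mean of the 5 measured urothelium markers of 12 ran the other way. It was -0.82, 0.67 and -0.88 on the CPB arrays and 0.46, -0.95 and 1.53 on the Sham arrays. Taken singly, UPK1B, UPK3A and KRT19 had CPB 2, Sham 1 and Sham 3 as the 3 highest arrays, and UPK1A and UPK2 did not. Summed intensities of the urothelium markers were 638 to 2856 in CPB and 472 to 3146 in Sham medulla. The 4 measured thick ascending limb genes had summed intensities of 4673 to 5068 in CPB and 3186 to 6169 in Sham medulla. Those of the 5 measured collecting duct genes were 2492 to 6783 in CPB and 3330 to 5776 in Sham medulla. Of these collecting duct genes, AQP3 had the highest value on CPB 2, at 5437. UMOD, SLC12A1 and AQP2 have no named probe set. The study took outer medullary blocks, and in such bulk tissue fewer cells of a type and less RNA per cell cannot be told apart.

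**Figure D2:**
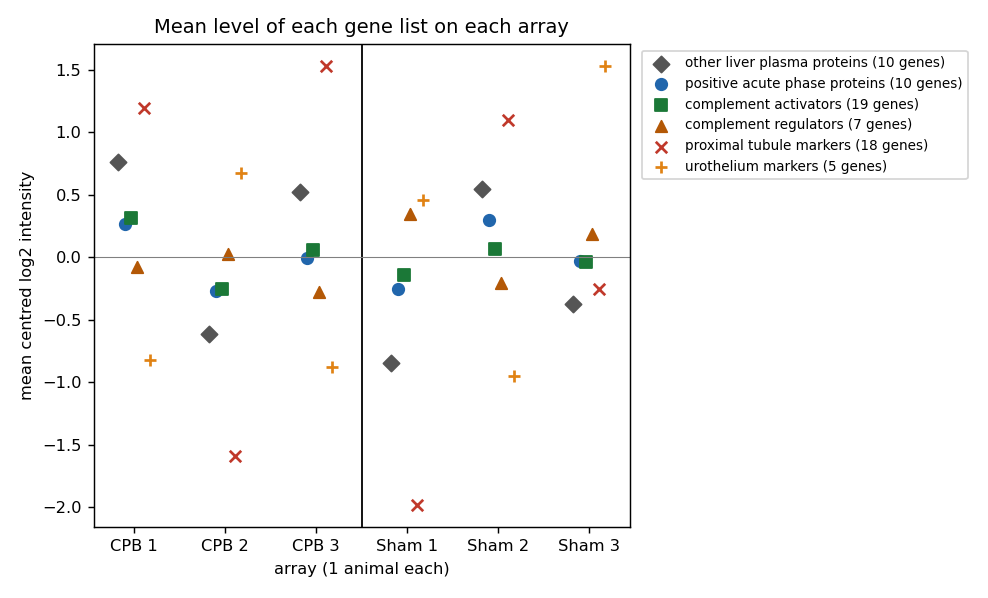
Mean log2 intensity of 4 groups of members and 2 marker lists on each array, after subtracting from each gene its average of all 6 (3 CPB left of the line, 3 Sham right of it). The other liver plasma proteins lay at 0.76, -0.62 and 0.52 on the CPB arrays and at -0.84, 0.55 and -0.37 on the Sham arrays, on the same side of 0 as the proximal tubule markers on every array. The complement activators also lay on that side on every array, between -0.25 (CPB 2) and 0.31 (CPB 1). The positive acute phase proteins did so on all but CPB 3 (-0.0076), and the complement regulators lay on the opposite side on every array.

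Among the complement activators, 19 of 24 genes were measured, 12 with a higher and 7 with a lower mean in CPB, and none met the threshold. The median log2 difference was 0.087, with a range of -0.74 to 0.85. C1R, a protease of the classical pathway, had intensities of 1855, 856.5 and 992.4 in CPB medulla, against 1549, 1010.1 and 743.4 in Sham medulla, a log2 difference of 0.15 (SE 0.39). C1S, which C1R activates, had 1600.0, 652.1 and 797.8 in CPB and 1367, 893.0 and 855.2 in Sham medulla (-0.11, SE 0.38). For both genes CPB 1 and Sham 1 were the 2 highest arrays and the groups overlapped over most of their range. This order was that of neither the proximal tubule nor the urothelium markers, and the centred mean of 8 measured fibroblast markers was likewise highest on CPB 1 (0.32) and Sham 1 (0.31). Taken singly, only POSTN of these markers had CPB 1 and Sham 1 as its 2 highest arrays. The 2 highest were Sham 1 and CPB 2 for DCN, PDGFRB, FBLN1 and COL3A1. They were Sham 3 and Sham 1 for COL1A2, CPB 1 and Sham 3 for LUM, and CPB 3 and CPB 2 for THY1. The part of such cells in the C1R and C1S values was not tested.

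C1QC, a chain of C1q that macrophages make, had intensities of 460.1, 376.4 and 243.8 in CPB and 690.0, 264.3 and 812.7 in Sham medulla, a log2 difference of -0.60 (SE 0.48, 95% confidence interval -1.77 to 0.56). C1QA, a second chain of the same molecule, had 159.4, 143.1 and 99.1 in CPB and 188.3, 90.7 and 254.6 in Sham medulla (-0.31, SE 0.41). Both chains had Sham 3 and Sham 1 as the 2 highest arrays, with Sham 2 below 2 of the 3 CPB arrays on C1QC and below all 3 on C1QA. Without Sham replicate 2 both met the study's threshold, C1QC at -1.10 (SE 0.30) and C1QA at -0.74 (SE 0.27), and neither met it with any other single array left out. VSIG4, a receptor for C3b on tissue macrophages and the single measured gene of the receptor group, had intensities of 138.9, 104.1 and 138.0 in CPB, against 164.6, 132.8 and 186.1 in Sham medulla, a log2 difference of -0.34 (SE 0.19, 95% confidence interval -0.80 to 0.11). CPB 1, Sham 1 and Sham 3 were the 3 highest arrays for C1QA, C1QC and VSIG4, as they were for C3 and APOE. The macrophage and monocyte markers CD163 and MRC1 also had these 3 highest arrays. The other measured ones, CD14, AIF1, CD74, TYROBP, FCER1G and MARCO, did not. For VSIG4 the highest were Sham 3 and Sham 1, and the groups overlapped through Sham 2 alone. The 2 other VSIG4 probe sets differed by 0.077 (SE 0.12) and -0.13 (SE 0.15). The centred mean of 8 measured macrophage and monocyte markers was -0.022, -0.15 and -0.081 on the CPB arrays and 0.21, -0.088 and 0.13 on the Sham arrays, with summed intensities of 1629 to 1915 in CPB and 1546 to 2244 in Sham medulla. The part of such cells in the C1QA, C1QC and VSIG4 values was not tested.

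C4A and C5 had the largest differences of the activators with a higher mean in CPB. C4A, whose product joins C2 to form the C3 convertase of the classical and lectin pathways, had intensities of 1041, 144.4 and 558.1 in CPB and 119.0, 805.5 and 183.3 in Sham medulla, a log2 difference of 0.75 (SE 0.97, 95% confidence interval -1.61 to 3.12). CPB 2 lay near the lowest Sham animals and Sham 2 above CPB 3. C5, which is cleaved to the anaphylatoxin C5a and starts the pore, had 299.2, 73.3 and 362.1 in CPB and 72.1, 163.6 and 113.9 in Sham medulla, a log2 difference of 0.85 (SE 0.66, 95% confidence interval -0.76 to 2.47). Here CPB 1 and CPB 3 lay above every Sham array and CPB 2 level with the lowest of them. Without CPB replicate 2, C5 was higher by 1.58 (SE 0.36) and met the study's threshold, while without CPB replicate 3 the difference was 0.42. For C4A the difference ranged between 0.13 and 1.57 with 1 array left out, the lowest without CPB replicate 1 and the highest without Sham replicate 2. With the centred mean of the proximal tubule markers as a covariate, the C4A difference was 0.13 (SE 0.40) and that of C5 0.42 (SE 0.22).

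C7, which anchors the growing pore to the membrane, had 779.4, 173.8 and 530.3 in CPB and 264.5, 642.9 and 294.2 in Sham medulla (0.17, SE 0.63). Its second probe set differed by 0.19 (SE 0.92). C8B and C9, both subunits of the pore, differed by 0.35 (SE 0.32) and 0.42 (SE 0.50) on their brightest probe sets, each with CPB 1, CPB 3 and Sham 2 as the 3 highest arrays. The second C8B probe set ranged over 8.16-fold between arrays, with the lowest value of 16.6 on CPB 2 and the highest of 136 on CPB 3, and differed by 0.83 (SE 0.94). C8A and C8G, the remaining subunits of C8, differed by 0.086 (SE 0.13) and 0.14 (SE 0.14).

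C3 itself showed little variation, with intensities of 192.9, 158.9 and 159.6 in CPB and 202.4, 173.6 and 174.3 in Sham medulla. Its log2 difference was -0.11 with a 95% confidence interval of -0.44 to 0.22, which lies within 1.6-fold in both directions. Of the alternative pathway genes, factor B (CFB) differed by 0.19 (SE 0.22) and properdin (CFP) by 0.12 (SE 0.14). Factor D (CFD), the protease that cleaves factor B, had intensities of 180.0, 763.2 and 185 in CPB and 610.8, 225.2 and 859.2 in Sham medulla, a log2 difference of -0.74 (SE 0.74, 95% confidence interval -2.54 to 1.06). The arrays fell apart within both groups, with CPB 2 beside Sham 1 and Sham 3 and Sham 2 beside CPB 1 and CPB 3. With the proximal tubule covariate the CFD difference was -0.30 (SE 0.41). The lectin pathway genes FCN1, FCN2 and MBL2 differed by 0.036, -0.057 and -0.012, and MBL2 stayed within 1.10-fold over the 6 arrays.

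Among the complement regulators, 7 of 8 genes were measured, 2 with a higher and 5 with a lower mean in CPB, at a median log2 difference of -0.22. C4BPA, the alpha chain of the plasma inhibitor that removes C4b, had the smallest unadjusted p of all members. Its intensities were 273.7, 215.6 and 277.5 in CPB medulla, against 557.0, 257.7 and 395.7 in Sham medulla, which gave a log2 difference of -0.60 (SE 0.29, 95% confidence interval -1.32 to 0.12). The 3 CPB animals lay close together, and the overlap came from Sham 2, which fell between CPB 2 and CPB 1. Without Sham replicate 2 the difference was -0.89 (SE 0.21) and met the study's threshold, and without Sham replicate 1 it was -0.33. The proximal tubule covariate left it at -0.53 (SE 0.29). C4BPB, the beta chain of the same protein, differed by 0.10 (SE 0.11).

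CD46, a cofactor for the cleavage of C3b and C4b, had intensities of 529.2, 908.0 and 455.3 in CPB and 984.9, 453.6 and 1259 in Sham medulla (-0.45, SE 0.45). Its 2 other probe sets differed by -0.58 (SE 0.39) and -0.83 (SE 0.50), and these 2, not the brightest, met the study's threshold without Sham replicate 2. CD59, which blocks the final step of pore assembly, had 681.9, 1564 and 628.6 in CPB and 1209, 715.6 and 1485 in Sham medulla (-0.31, SE 0.44). A second CD59 probe set differed by -0.17 (SE 0.32), with CPB 2, CPB 3 and Sham 3 as the 3 highest arrays. On the 2 other CD46 probe sets the 3 highest were CPB 3, Sham 1 and Sham 3. On the brightest probe set of both genes the 3 highest were CPB 2, Sham 1 and Sham 3. These were also the 3 highest for 3 of the 5 urothelium markers (UPK1B, UPK3A and KRT19, not UPK1A or UPK2). They were so for 7 of 12 measured endothelium markers as well. The centred mean of the endothelium markers was -0.37, 0.43 and -0.51 on the CPB arrays and 0.48, -0.18 and 0.15 on the Sham arrays, with summed intensities of 1650.2 to 3415 in CPB and 2263 to 4085 in Sham medulla, and the part of either cell type in the CD46 and CD59 values was not tested. With the proximal tubule covariate the differences were -0.21 (SE 0.30) for CD46 and -0.059 (SE 0.25) for CD59. SERPING1, the inhibitor of C1R and C1S, had 1201, 1157 and 613.6 in CPB and 1676, 861.5 and 921.2 in Sham medulla (-0.21, SE 0.37), with the lowest value in CPB 3. CD55, which speeds the decay of C3 convertases, had 5 probe sets with log2 differences between -0.22 and 0.14, 4 of them negative. Vitronectin (VTN), which binds the terminal complex, differed by 0.15 (SE 0.14).

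Of the positive acute phase proteins, those that rise in plasma during the response in pigs or other mammals, 10 of 12 genes were measured. Their median log2 difference was 0.14, with 6 higher and 4 lower means in CPB, and none met the threshold. CRP, C-reactive protein, had intensities of 18.5, 18.5 and 17.1 in CPB and 17.6, 17.2 and 14.9 in Sham medulla (0.12, 95% confidence interval -0.16 to 0.41). ITIH4, known in the pig as major acute phase protein, had 47.0, 58.4 and 49.98 in CPB and 45.7, 49.7 and 44.3 in Sham medulla (0.15, 95% confidence interval -0.16 to 0.46). SAA2, a serum amyloid A, had 193.3, 229.6 and 154.3 in CPB and 265.2, 185.6 and 260.0 in Sham medulla (-0.30, SE 0.21), and 0.016 (SE 0.10) on its second probe set. The intervals of CRP, a dim probe set as given above, and of ITIH4 lay within 1.6-fold in both directions. That of SAA2 reached -0.82 on its brightest probe set and so did not. Only 30.7% of all probe sets had a lower mean intensity than ITIH4, and its signal over background is not known.

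Other genes of this group spread more widely. LBP, which carries bacterial lipopolysaccharide to its receptor, had intensities of 196.6, 39.5 and 55.0 in CPB and 36.8, 86.4 and 35.0 in Sham medulla (0.65, SE 0.68). CPB 1 alone lay above the Sham range, and without CPB replicate 1 the difference was -0.045. A second LBP probe set differed by 0.074 (SE 0.10). SERPINA1, the elastase inhibitor alpha-1-antitrypsin, had 34.1, 89.6 and 46.8 in CPB and 147.7, 49.1 and 104.9 in Sham medulla, a log2 difference of -0.80 (SE 0.52, 95% confidence interval -2.06 to 0.46). Sham 1 and Sham 3 lay above all CPB arrays, and without Sham replicate 2 the difference was -1.25 (SE 0.45) and met the study's threshold. Without Sham replicate 1 it was -0.46 and without CPB replicate 1 it was -0.50. A2M, a broad protease inhibitor that is a major acute phase protein in the rat, had 703.7, 264.8 and 526.7 in CPB and 203.0, 955.5 and 329.2 in Sham medulla (0.21, SE 0.64). Its other probe sets differed by 0.036 (SE 0.18) and 0.16 (SE 0.26). FGB, the beta chain of fibrinogen, had 508.6, 24.4 and 555.0 in CPB and 22.1, 621.7 and 259.4 in Sham medulla (0.32, SE 1.68), a range of 28.1-fold between animals. For FGB and the brightest A2M probe set the highest array was Sham 2 and the lowest Sham 1. ORM1, a plasma carrier of basic drugs and lipids, had 527.4, 619.4 and 288.7 in CPB and 555.6, 456.0 and 440.9 in Sham medulla (-0.081, SE 0.30), while its 2 other probe sets differed by 0.14 (SE 0.11) and 0.23 (SE 0.14). PTX3, a pentraxin made locally by endothelial and myeloid cells, differed by -0.50 (SE 0.32), with intensities of 15.3, 26.1 and 17.4 in CPB and 40.2, 21.3 and 22.8 in Sham medulla. Its second probe set differed by -0.0091 (SE 0.12).

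**Figure D3:**
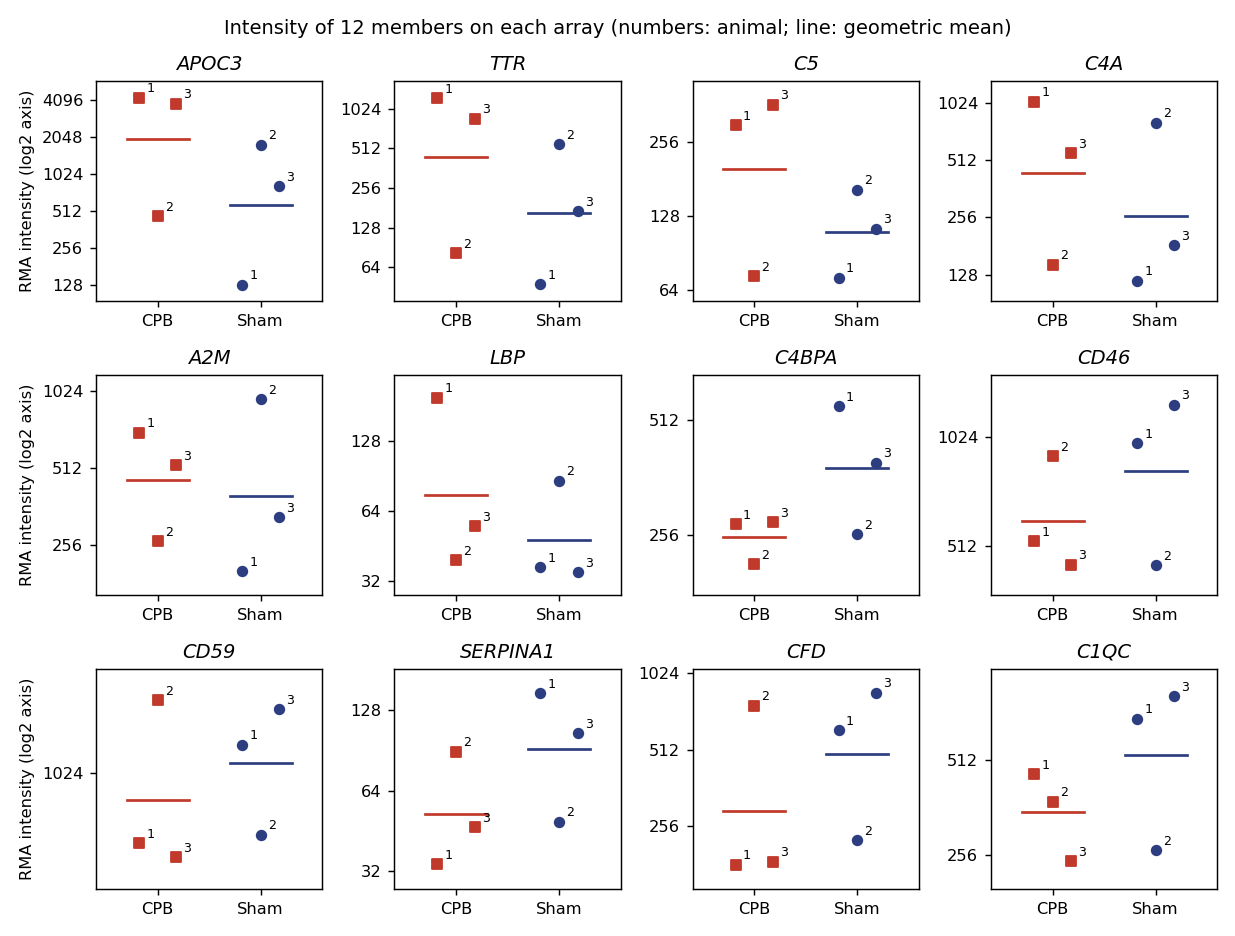
RMA intensity (log2 axis) of 12 members, with 3 CPB animals (squares) left of 3 Sham animals (circles), each point numbered by animal and each line the geometric mean of a group. The groups overlap in all 12. APOC3 ranges over 33.2-fold between animals, and in C4BPA the overlap comes from Sham 2 at 257.7.

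The other liver plasma proteins, carriers that either fall in the acute phase or follow no fixed rule, had all 10 genes measured, 8 with a higher and 2 with a lower mean in CPB, at a median log2 difference of 0.19. APOC3, an apolipoprotein of triglyceride-rich particles, had the largest difference of all members. Its intensities were 4265, 460.4 and 3811 in CPB and 128.5, 1766 and 815.3 in Sham medulla, a log2 difference of 1.78 (SE 1.25), which is 3.43-fold with a 95% confidence interval on the log2 scale of -1.27 to 4.83. CPB 1 and CPB 3 lay above all Sham arrays, while CPB 2 lay below Sham 2 and Sham 3. TTR, the carrier of thyroxine and of the retinol-binding protein, had 1228, 81.8 and 857.6 in CPB and 47.6, 551.7 and 169.6 in Sham medulla (1.42, SE 1.30). RBP4, the retinol carrier that binds TTR, had 1004, 166.2 and 774.9 in CPB and 85.7, 1622 and 207.8 in Sham medulla (0.72, SE 1.22). A second RBP4 probe set differed by 0.30 (SE 0.32). Without CPB replicate 2 APOC3 was higher by 2.82 (SE 1.09) and TTR by 2.64 (SE 1.00), both at the study's threshold, while without Sham replicate 1 the differences were 0.70 for APOC3 and 0.53 for TTR. With the proximal tubule covariate the differences were 0.92 (SE 0.25) for APOC3, 0.53 (SE 0.26) for TTR and -0.070 (SE 0.48) for RBP4.

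ITIH1, a heavy chain of the inter-alpha inhibitors that bind hyaluronan, had intensities of 380.6, 96.9 and 354.1 in CPB and 83.05, 354.4 and 104.3 in Sham medulla (0.70, SE 0.75), with the same 3 highest arrays as TTR. A second ITIH1 probe set had CPB 1, CPB 2 and Sham 2 as the 3 highest arrays and differed by 0.11 (SE 0.12). APOA1, the main protein of high-density lipoprotein, was with AHSG 1 of the 2 genes of this group with a lower mean in CPB. It had 1099, 439.6 and 445.1 in CPB and 1217, 767.2 and 649.7 in Sham medulla (-0.50, SE 0.43), with CPB 2 and CPB 3 below all Sham arrays and CPB 1 below Sham 1 alone. Without CPB replicate 1 it was lower by -0.94 (SE 0.30) and met the study's threshold, and without Sham replicate 1 the difference was -0.24. Albumin (ALB) had 28.5, 23.7 and 29.8 in CPB and 24.9, 29.8 and 25.5 in Sham medulla, with a difference of 0.030 (95% confidence interval -0.32 to 0.38). The fetuin AHSG (-0.070), APOE (0.0071), APOH (0.19) and ITIH2 (0.20) all differed by less than 1.6-fold in the mean.

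**Figure D4:**
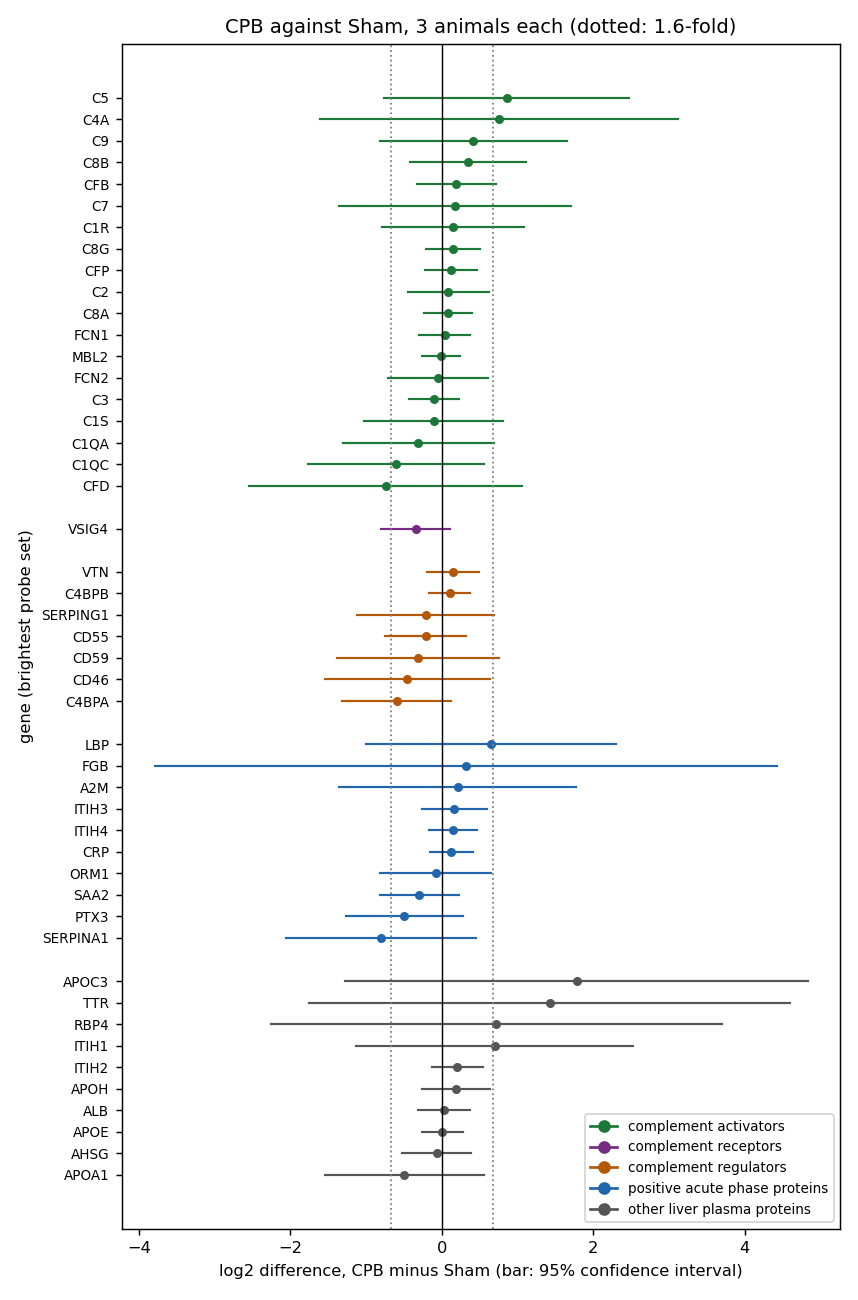
Log2 difference, CPB minus Sham, of the brightest probe set of each of the 47 genes (points) with its 95% confidence interval from limma (bars), 3 animals in each group, by group of members. Dotted lines mark 1.6-fold. All 47 intervals cross 0, that of C4BPA from -1.32 to 0.12 and that of APOC3 from -1.27 to 4.83.

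Of 19 genes with more than 1 probe set, 13 differed in the same direction on all of them, and C9, CFP, VSIG4, CD55, ORM1 and SAA2 did not. Leaving out single arrays changed the counts. Without Sham replicate 2, 6 member probe sets of 5 genes met the study's threshold, all lower in CPB (C4BPA, 2 of the CD46 probe sets, C1QC, C1QA and SERPINA1), against 2.92% of all probe sets. Without CPB replicate 2, 4 did, all higher in CPB (APOC3, TTR, C5 and the second C8B probe set), against 2.89%. Without CPB replicate 1, APOA1 alone did, against 0.329%. Without CPB replicate 3, Sham replicate 1 or Sham replicate 3, 0 members did. Without both Sham 2 and CPB 2, 20 member probe sets of 17 genes met it, 12 higher and 8 lower, against 12.8% of all probe sets, and 4 passed an adjusted p of 0.05 in limma (CFD, ITIH1, C9 and the second C8B probe set), against 3.00%. These 2 arrays were picked with earlier results known. Their centred means of the proximal tubule markers, -1.59 on CPB 2 and 1.10 on Sham 2, were opposite in sign to the rest of their groups. Without them the groups did not overlap for 60.4% of all probe sets, so the choice of arrays and these counts are not independent. On the 4 arrays that remain, the centred mean of the proximal tubule markers was 1.19 and 1.53 in CPB and -1.98 and -0.25 in Sham, and its part in these counts was not tested. With the proximal tubule covariate and all 6 arrays, 2 members met the study's threshold, against 0.429% of all probe sets: APOC3, higher by 0.92 (SE 0.25), and FGB, lower by -0.84 (SE 0.28), both with an adjusted p of 0.995 in limma.

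Other genes of the same pathways were read from lists that hold no member. Of 10 measured other complement genes, from a list of 25, CLU met the study's threshold. This gene encodes clusterin, a chaperone in plasma that binds the terminal complex, and it is among the genes the study selected on these arrays, so its direction is not independent evidence. CLU had intensities of 1088, 763.7 and 565.8 in CPB and 1141, 1503 and 1203 in Sham medulla, a log2 difference of -0.71 (SE 0.26, adjusted p = 0.995 in limma). The groups did not overlap, and CLU did not meet the threshold with the methods' t-test on log2 or on linear values, with the replicate block, with array weights (-0.29) or with any 1 array left out other than CPB 1. The groups also did not overlap for CALR, the chaperone calreticulin that binds C1q (0.47, SE 0.25), and ITGAM, a chain of complement receptor CR3 (0.30, SE 0.12), both with the higher mean in CPB, where 5.27% of all probe sets had no overlap. A second ITGAM probe set overlapped and differed by -0.011 (SE 0.13). PROS1, the anticoagulant protein S, part of which circulates bound to C4b-binding protein, had 1097, 320.2 and 1082 in CPB and 681.3, 1082 and 551.5 in Sham medulla (-0.032, SE 0.54). The median over these 10 genes was 0.060.

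Of 16 measured other acute phase genes none met the threshold. The mean was higher in CPB for 14, against 55.9% of all probe sets, and their median was 0.33, against 0.027 over all probe sets. FTL, the light chain of the iron store ferritin, had 11428, 5967 and 10685 in CPB and 4952, 10514 and 6904 in Sham medulla (0.34, SE 0.36). FTH1, the heavy chain, had 9671, 6937 and 9573 in CPB and 7054, 9129 and 7453 in Sham medulla (0.14, SE 0.18). Of these 16 genes, 10 had CPB 1, CPB 3 and Sham 2 as the 3 highest arrays, against 21.4% of all probe sets. Their centred mean was 0.45, -0.51 and 0.64 on the CPB arrays and -0.72, 0.42 and -0.28 on the Sham arrays. On every array it lay on the same side of 0 as that of the proximal tubule markers, whose part in these values was not tested. Of 16 genes of acute phase signalling (interleukin-6, interleukin-1 and TNF with their receptors, and the factors that act below them) none met the threshold either, and their median was 0.056. JAK1, a kinase of the interleukin-6 receptor, had 1318, 1400.3 and 1284 in CPB and 1759, 1211 and 1708 in Sham medulla (-0.21, SE 0.17). A second, dimmer JAK1 probe set differed by 0.10 (SE 0.11). CEBPD, a transcription factor of the acute phase, had 1046, 1391 and 1074 in CPB and 1055, 759.2 and 1108 in Sham medulla (0.27, SE 0.20), and its 2 other probe sets also had a higher mean in CPB.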

How the data were processed

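RNA of 3 CPB and 3 Sham medullas was hybridised to 1 Affymetrix GeneChip Porcine Genome Array per animal. The authors normalised the arrays together with RMA in ArrayStar, and the deposited values are RMA intensities for 24123 probe sets. Their scale is not stated and was read from the values as linear. Array medians lay between 94.62 and 96.93, signal over background is not known, and the number of arrays limits the precision.

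The 124 control probe sets were left out and log2 was taken. The remaining 23999 were fitted with limma 3.58.1 (lmFit, eBayes) in R 4.3.3, a model with group alone that was first tested on simulated data. Genes were named from the array annotation, where 10099 probe sets carry 1 symbol. Medians, counts of genes and array orders use the probe set of each gene with the highest mean. No genome build is named for the values and no sequence table was given, so positions and sequences are not printed.

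The members, lists and alternatives were chosen with earlier results of these data known. Values on every array were given for the 2 brightest genes and the 2 with the largest difference in each group of members, and of the other pathway lists for the 2 brightest and those at an unadjusted p under 0.05. C1QA, C1QC, C3, C7, CFD, SAA2, CRP, ITIH4, FGB, PTX3, RBP4, ITIH1 and ALB, and CALR and ITGAM of the other lists, fall outside this rule. They were picked with their values in view, as were the 12 genes of the plot by animal and the 4-fold and 10-fold range limits. The alternatives were the methods' t-test, array weights, trend and robust prior, median centring, a second quantile normalization, leaving out dim probe sets, keeping control probe sets, 16 added before log2, each array left out, a block for replicate number, Sham 2 and CPB 2 left out together, a covariate for proximal tubule markers, other fold minimums and all probe sets of a gene.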

Additional observations from a re-analysis of the deposited data

How the results depend on the processing

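Precision is limited by having 3 arrays in each group, and signal over background is not known. Of 396 alternative values of the genes named by the rule given above, 335 kept direction and side of the study's threshold. Another 27 kept direction and newly met it, 10 kept direction and no longer met it, and 24 changed direction. Of these 24, PROS1 without Sham 2 and CPB 2 also met it. FGB, which falls outside that rule, changed direction and met it with the proximal tubule covariate (-0.84). The cause was not tested in any case. Against 0 member probe sets at the study's threshold, 19 met it with array weights (whose estimation stopped before its tolerance; 8.82% of all probe sets did), 20 without Sham 2 and CPB 2 (12.8%), 2 with the proximal tubule covariate (0.429%), and 0 to 6 with 1 array left out (0.217% to 2.92%). At an unadjusted p under 0.05 alone the counts were 29 with array weights (22.9% of all probe sets), 25 without both arrays (23.4%), 2 with the covariate (2.67%) and 0 to 9 with 1 array left out (0.675% to 9.24%). An adjusted p of 0.05 in limma was passed by 4 without both arrays (3.00%). Groups did not overlap for 3 after a second quantile normalization (5.96%), for 49 without both arrays (60.4%) and for 0 to 27 with 1 array left out (8.81% to 32.4%). Of the other pathway probe sets, 1 met the threshold, against 0 with the methods' t-test on log2 or linear values, the replicate block or a 2-fold minimum, 13 with array weights, 17 without both arrays and 0 to 5 with 1 array left out. The median of the regulators was -0.53 without both arrays, -0.059 with the covariate, -0.081 with array weights and -0.39 to -0.074 with 1 array left out. That of the positive acute phase proteins was -0.065 with the covariate and -0.14 to 0.18 with 1 array left out, the lowest without CPB replicate 1, where the median of the activators was -0.025.

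Direction changed for C1S (0.43 with array weights, 0.063 without both arrays), ORM1 (0.023 with array weights, 0.055 with the covariate), A2M (-0.20 with the covariate), APOA1 (0.13 with array weights), PROS1 (0.11 on linear values, 0.65 with array weights, 0.83 without both arrays) and CEBPD (-0.028 without both arrays). Among members outside the rule with values given on every array, it changed with the covariate for FGB (-0.84), C7 (-0.22), RBP4 (-0.070) and ALB (-0.039). With 1 array left out the range was -0.19 to 0.43 for C1R, -0.49 to 0.16 for C1S, -0.39 to 0.10 for SERPING1, -0.30 to 0.25 for ORM1, -0.28 to 0.84 for A2M, -0.045 to 1.11 for LBP and -0.33 to 0.56 for PROS1.

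The CPB and Sham animals share only a replicate number. Deviations from the group means correlated at -0.39, -0.68 and -0.016 across probe sets for numbers 1, 2 and 3, and with the replicate block 1 member probe set reached an unadjusted p under 0.05 (1.12% of all probe sets) and 0 met the study's threshold.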
